A study of Mus musculus with 6 samples.

Results

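The genes described here are the core of the pathway from leukemia inhibitory factor (LIF) through gp130 to Stat3 in mouse embryonic stem cells. They are the receptor chains Lifr and Il6st (gp130), the kinases Jak1, Jak2 and Tyk2, the transcription factor Stat3, the feedback inhibitor Socs3, the phosphatase Ptpn11 (Shp2) and the kinases Pim1 and Pim3. They were chosen by symbol, and all 10 were found among the 18312 genes of the table. The study sequenced RNA from wild-type E14 embryonic stem cells of the 129/Ola background, kept in 15% serum with 1000 U/ml LIF, to find mRNAs bound by Brf1 (Zfp36l1) and Brf2 (Zfp36l2). Its 6 libraries are 2 immunoprecipitates made with an antibody against Brf1 and Brf2, 2 control precipitates made with rabbit IgG and 2 preparations of total RNA, all wild type and all in LIF. RNA was taken from cytoplasmic extracts. The table analysed here holds a single profile of 22625281 counts whose columns name no library, so it belongs to no group and the comparison of Brf precipitate with IgG was not made. There is no condition without LIF and no replicate. Every level below is therefore the authors' single value, and it may come from precipitated RNA, so it measures neither binding nor necessarily expression.

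LIF binds the LIF receptor, which then pairs with gp130, and Jak kinases bound to the receptor tails phosphorylate each other and the receptor. Stat3 docks on the phosphorylated tails, is phosphorylated in turn, and moves to the nucleus, where it sustains naive pluripotency in mouse embryonic stem cells. Socs3 is induced by Stat3 and shuts the receptor down at gp130, while Shp2 docks at the same site and links the receptor to Ras and Erk. Zfp36 proteins such as Brf1 and Brf2 recognise AU-rich stretches near the ends of mRNAs and recruit the decay machinery, which is why such stretches in the pathway's transcripts are shown first.

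Of the 10 genes, 5 had the AU-rich 7-mer TATTTAT in the longest 3′ untranslated region annotated for them. They were the inhibitor Socs3, the phosphatase gene Ptpn11, the kinases Pim1 and Pim3, and Jak2. Over the whole table, 5115 of 17529 genes with an annotated region of at least 50 nt had it (29.2%). Long regions hold the motif more often, and the table's median longest region was 1050 nt. Of the 10 genes, only Pim3 and Tyk2 had a shorter one. The 29.2% is therefore not matched for length, and shares for regions of like length are given below. Lifr, Il6st, Jak1, Tyk2 and Stat3 had none, although the regions of Lifr (6320 nt) and Il6st (5641 nt) were the longest of the 10. The 6 stretches below hold every TATTTAT in these genes, 30 bases each, read 5′ to 3′ on the mRNA strand from GENCODE M21 transcripts, with the motif in capitals. Where motifs overlap, the capitals run on.
Pim1: taatgTATTTATTTATTTATTTATttggtt
Socs3: tgcacataTATTTATATTTATactcagaaa
Pim3, upstream site: ccacggtctctTATTTATggtgtgatcacc
Pim3, downstream site: cctgctggggcTATTTATtgtttaatttat
Jak2: tttttgtgtgtTATTTATacaagattttaa
Ptpn11: atatacctgttTATTTATgacctaattgtg

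Pim1 held 4 overlapping copies in 19 bases, at chr17:29495691-29495720 on the plus strand of GRCm38, bases 944 to 973 of a region of 1365 nt. It was the only one of the 10 with the stricter 9-mer TTATTTATT, which 8.06% of all genes with a region had. Among 2433 genes whose region lay within 20% of the length of Pim1's, 21 had at least 4 copies of TATTTAT (0.863%). The Socs3 stretch, at chr11:117966135-117966164 on the minus strand, held 2 copies that share a base, near the end of a region of 1474 nt (bases 1389 to 1418). At least 2 copies were present in 10.5% of regions of like length. Pim3 held 2 separate copies, at chr15:88865221-88865250 and chr15:88865268-88865297 on the plus strand, and 5.24% of regions of like length had at least 2.

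Jak2 had 1 copy in the last bases of its region, at chr19:29313043-29313072 on the plus strand, and 29.9% of regions of like length had at least 1. Ptpn11 had 1 copy at chr5:121130974-121131003 on the minus strand, and 58.3% of regions of like length had at least 1, since its region is long (3635 nt). By the same measure 72.9% of regions as long as that of Lifr, 68.9% as long as that of Il6st and 58.7% as long as that of Stat3 had the motif, and these genes did not. For Jak1 and Tyk2, also without it, the shares were 27.9% and 24.5%. The count depends on motif and region. The shorter pentamer ATTTA was present in all 10 genes, against 67.6% of genes in the table. With the shortest annotated region only Socs3, Ptpn11 and Pim3 had TATTTAT, 3 of 10, against 19.9% of all genes. Neither of these shares was matched for length. A match describes these letters and is not a measured binding site.

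**Figure D1:**
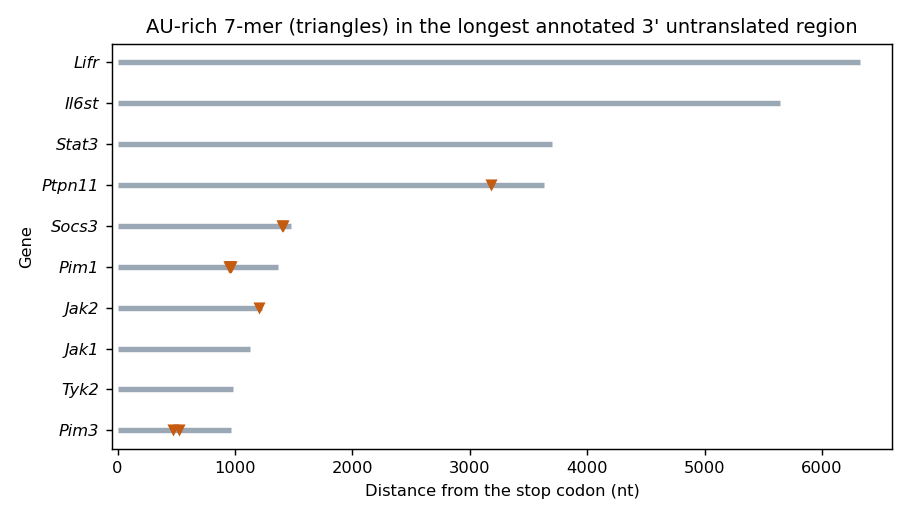
Longest annotated 3′ untranslated region of each of the 10 genes (grey bars, distance from the stop codon in nt) with each copy of the AU-rich 7-mer as a triangle; overlapping copies merge. Pim1, Socs3 and Pim3 carry 4, 2 and 2 copies in regions of 1365, 1474 and 964 nt, and the longest regions, of Lifr, Il6st and Stat3, carry none.

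The 10 genes spanned a 19.9-fold range of levels. FPKM here is the count scaled to the effective length of the gene and to the total of counts, and the bounds in brackets are those of the deposited table, which for these genes are the level plus or minus 2 times its counting error. All 10 had at least 1 FPKM, a level reached by 56.0% of genes in the table. Their median was 17.5 FPKM against 1.94 for all genes. They had 486 to 4873 counts each and held 0.106% of all counts together. In RNA from a whole culture, fewer cells that express a gene and less of its RNA per cell cannot be told apart.

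From high to low, the order was Pim1, Pim3, Ptpn11, Socs3, Stat3, Il6st, Jak1, Lifr, Jak2 and Tyk2. Of the 9 pairs of neighbours in that order, 8 had bounds that did not overlap, and the exception was Ptpn11 with Socs3. The effective length, a corrected length that the quantification assigns, exceeded the model length 1.28-fold (Jak2) to 1.91-fold (Pim3) in these genes. All 10 ratios were above the median of the table, 1.27. Computed on the model length, every level was higher, Socs3 passed Ptpn11 with intervals that still overlapped, the intervals of Jak2 and Tyk2 overlapped as well, and the other places were the same.

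**Figure D2:**
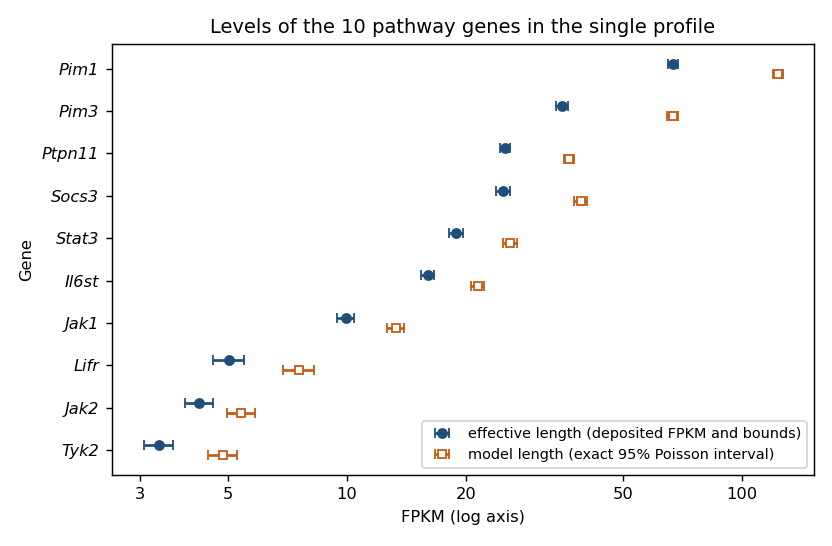
Level of each of the 10 genes in FPKM on a log axis, on the effective length (filled circles, deposited bounds) and on the model length (open squares, exact 95% Poisson intervals). Pim1 is highest on either length, at 66.8 and 123 FPKM, and Tyk2 lowest, at 3.36 and 4.86 FPKM.

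**Figure D3:**
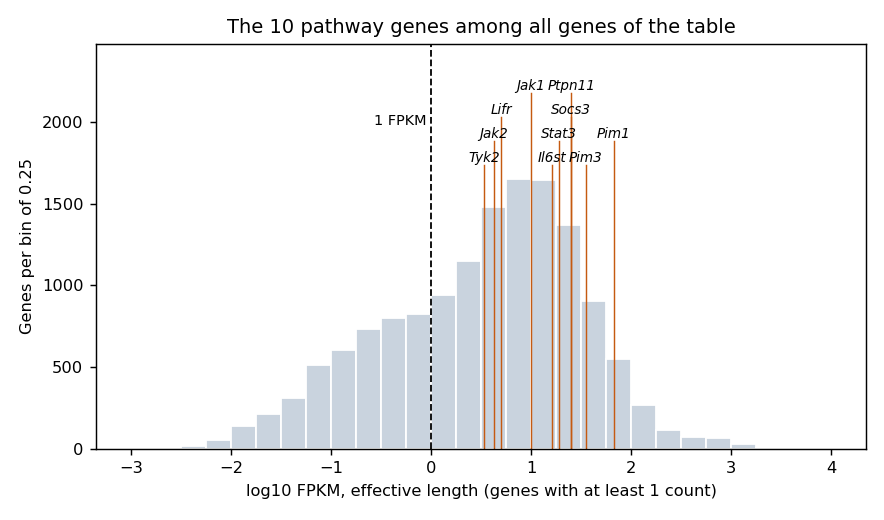
Number of genes per bin of log10 FPKM for all genes with at least 1 count (bars), with the 10 pathway genes as vertical lines and 1 FPKM as a dashed line. All 10 lines lie to the right of the dashed line, between Tyk2 at 3.36 FPKM and Pim1 at 66.8 FPKM.

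Between Il6st and Lifr, the shared signal chain had the higher level. Il6st, which encodes gp130, had 16.0 FPKM (15.4 to 16.6, 2644 counts), at percentile 80.1 of all genes. Lifr, the chain that gives LIF its specificity, had 5.05 FPKM (4.59 to 5.50, 486 counts), at percentile 61.8. The Il6st level was 3.17 times that of Lifr (95% interval 2.88 to 3.50 from the counts), and 2.84 times on the model length.

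The value for Lifr rests on a short gene model. The model is 2844 nt long, exactly the length of the annotated transcript Lifr-202, whose coding sequence has 719 codons. The receptor with its membrane span and signalling tail is encoded by Lifr-201, Lifr-203 and Lifr-204, with 1092 codons each. Mouse cells are known to make a soluble LIF receptor from a shorter transcript. Lifr-202 shares the first 2152 coding bases with the longer transcripts, and the last 1127 coding bases of those lie outside its exons. The match is by length only. If the model is that transcript, reads from the tail's exons and from the 3′ untranslated region of Lifr-203 (6320 nt) were not counted for Lifr, and the table cannot separate the soluble from the membrane form.

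**Figure D4:**
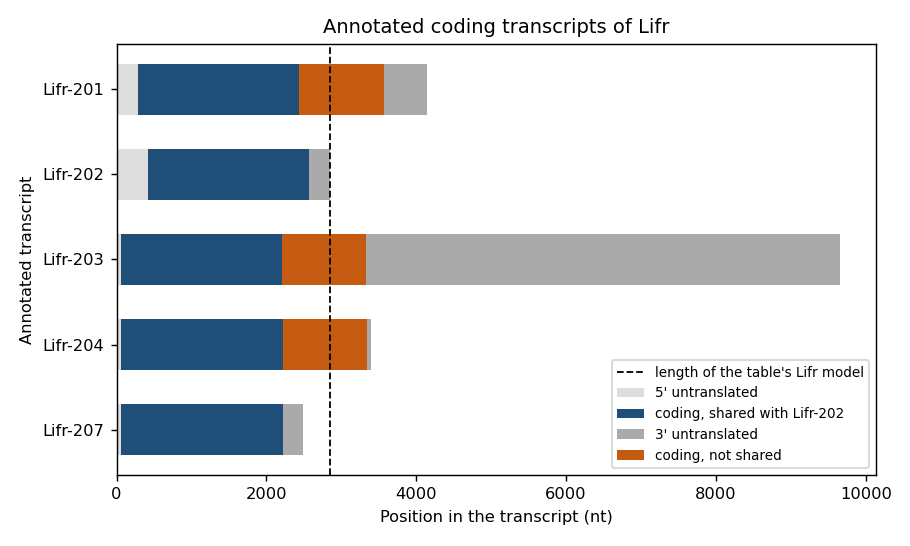
Annotated coding transcripts of Lifr laid out by position in the transcript (nt), with coding bases shared with Lifr-202 in blue, coding bases not shared in orange and untranslated bases in grey. The dashed line marks the 2844 nt of the table's Lifr model, which is where Lifr-202 ends.

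The partner chains used by other gp130 cytokines were lower than Lifr, with 1 exception. Of 5 such chains, Cntfr, the ciliary neurotrophic factor receptor, had 4.96 FPKM (4.35 to 5.57), and its ratio to Lifr had an interval that included equality (Lifr over Cntfr 1.02, 0.874 to 1.19). On the model length that ratio was 1.27 (1.09 to 1.48). Il11ra1 had 0.811 FPKM and the interleukin 6 receptor Il6ra 0.784 FPKM, and on the model length these reached 1.34 and 1.04. Il27ra had 0.253 FPKM. Osmr, the oncostatin M receptor chain, had 0.0735 FPKM from 9 counts. The Lifr level was 6.44 times that of Il6ra (5.07 to 8.27) and 68.7 times that of Osmr (35.9 to 151).

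Levels of the cytokine transcripts themselves were low. Of 10 listed ligands and ligand subunits, 8 were found and 4 passed 1 FPKM, against 56.0% of all genes. The list median was 0.896 FPKM. Lif, whose protein was added to the medium, had 1.35 FPKM (1.13 to 1.57, 149 counts). The cardiotrophin gene Ctf1 had 3.46 FPKM and Il11 had 1.82 FPKM. Il6, Il27 and Osm had 0 counts, which allow levels of up to 0.186, 0.159 and 0.0683 FPKM at a limit of 3 counts.

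Among the Jak kinases Jak1 had the highest level. It had 9.95 FPKM (9.45 to 10.4, 1597 counts), Jak2 had 4.24 FPKM (3.89 to 4.58, 605 counts) and Tyk2 had 3.36 FPKM (3.07 to 3.65, 536 counts). The Jak1 level was 2.35 times that of Jak2 (2.14 to 2.58) and 2.97 times that of Tyk2 (2.69 to 3.28). These ratios were 2.46 and 2.74 on the model length. The Jak2 level was 1.26 times that of Tyk2 (1.12 to 1.42), but on the model length the interval of that ratio included 1 (1.11, 0.988 to 1.25). Jak3, known mainly from lymphocytes, where it serves receptors with the common gamma chain, had 2.33 FPKM (2.10 to 2.56). On the model length it had 4.45 FPKM (4.02 to 4.91), close to Tyk2 at 4.86 FPKM (4.46 to 5.29).

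Stat3 was above each of the other Stat genes named here. It had 18.9 FPKM (18.2 to 19.7, 2623 counts), at percentile 82.4. Stat2, which acts in type I interferon signalling, came next at 5.20 FPKM and Stat6 followed at 4.84 FPKM. Stat4 had 3.97 FPKM, Stat5b had 1.97 FPKM and Stat5a had 0.529 FPKM. The Stat3 level was 3.64 times that of Stat2 (3.36 to 3.94) and 9.63 times that of Stat5b (8.67 to 10.7). On the model length these ratios were 3.26 and 7.04. Stat5a and Stat5b are close paralogs. Total and unique counts were equal for every gene, so no read was counted as shared between them. Whether reads common to the pair were dropped or given to either gene cannot be read from the table. Stat3 and Stat5a also overlap on opposite strands over 72 nt of annotated exon, 0.756% of the exonic bases of Stat3. Stat3 had 1.90 times the level of Jak1 (1.79 to 2.02).

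Socs3, whose protein binds gp130 and Jak and blocks the kinase, had 24.9 FPKM (23.9 to 25.9, 2404 counts). Its level was 1.32 times that of Stat3 (1.24 to 1.39), and 1.51 times on the model length. Within the Socs family, Socs2, known as a brake on growth hormone signalling, was higher on the effective length, at 32.4 FPKM (31.0 to 33.9). The ratio of Socs2 to Socs3 was 1.30 (1.23 to 1.38), but 1.01 on the model length (0.949 to 1.07), so the order of these genes depends on the length used. Socs6 had 16.3 FPKM, Socs4 had 15.7 FPKM, Socs7 had 5.99 FPKM and Cish, a target of Stat5, had 1.55 FPKM. Socs1, the inhibitor of interferon signalling, had 0.939 FPKM (0.736 to 1.14, 86 counts). The 2 lengths for Socs1 differ 3.32-fold, and on its model length it had 3.12 FPKM. The Socs3 level was 26.5 times that of Socs1 on the effective length (21.4 to 33.3) and 12.5 times on the model length (10.1 to 15.7). In all, 5 of 6 other members found had at least 1 FPKM, against 56.0% of all genes.

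Ptpn11, which encodes Shp2, had 25.2 FPKM (24.4 to 25.9, 4617 counts), at percentile 86.3. On the effective length its bounds overlapped those of Socs3. On the model length Socs3 had 39.0 FPKM (37.5 to 40.6) and Ptpn11 had 36.4 FPKM (35.4 to 37.5), so the order of these genes depends on the length used. Overlap of intervals does not test a difference, and no interval was computed for the ratio of this pair. Its model has the same length, 5599 nt, as the annotated transcript Ptpn11-202 that carries the AU-rich site shown above. Ptpn6 (Shp1), the related phosphatase known mainly from blood cells, had 4.89 FPKM (4.45 to 5.34). Ptpn1, which acts on Jak2 and Tyk2, had 9.80 FPKM (9.29 to 10.3). The Ptpn11 level was 5.14 times that of Ptpn6 (4.68 to 5.66) and 2.57 times that of Ptpn1 (2.42 to 2.72). Of 8 listed Pias proteins and Jak-Stat phosphatases, 6 were found by symbol, and Pias2 and Ptpn2 were not. Of the 6 found, 5 had at least 1 FPKM, against 56.0% of all genes. Among them Pias4, a SUMO ligase, had 8.92 FPKM and Pias1 had 7.15 FPKM. Pias3, known as an inhibitor of Stat3, had 4.54 FPKM. The remaining gene, the leukocyte phosphatase Ptprc, had 1 count.

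The Pim kinases, serine and threonine kinases induced by Stat signalling that promote growth and survival, were the highest of the 10 genes. Pim1 had 66.8 FPKM (64.9 to 68.7, 4873 counts), rank 911 of 18312 genes, and Pim3 had 35.0 FPKM (33.9 to 36.2, 3652 counts), at percentile 90.1. The Pim1 level was 1.91 times that of Pim3 (1.83 to 1.99), and 1.84 times on the model length. The other family gene, Pim2, which is not among the 10, had 85.2 FPKM (82.9 to 87.5). Its level was 1.28 times that of Pim1 (1.23 to 1.33) on the effective length, but on the model length the interval of the ratio included 1 (0.973, 0.936 to 1.01). The table's Pim1 model has 1753 nt. The AU-rich stretch above was read from a transcript of 2698 nt with 942 coding nt. The coding transcript nearest in length to the model, of 1794 nt, also carries the 4 copies. It has only 240 coding nt and is 41 nt longer than the model, so it is not an exact match. Whether the model holds them is not given in the table. An annotated antisense gene covers 488 nt of Pim1 exons (14.5%), and strand handling is not stated, so reads from it cannot be told apart from those of Pim1. A like overlap covers 8.07% of the exonic bases of Tyk2.

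Genes known from earlier work as Stat3 targets in embryonic stem cells were present throughout. All 16 passed 1 FPKM, against 56.0% of the table, and their median was 23.1 FPKM (28.3 on the model length). Mcl1, an anti-apoptotic factor, had 215 FPKM, and the pluripotency factor Nanog had 187 FPKM. Klf4, a transcription factor that Stat3 induces, had 13.9 FPKM. Tfcp2l1, a transcription factor that can replace Stat3 activity in self-renewal, had 24.5 FPKM. Gbx2, a homeobox factor also downstream of Stat3, had 4.79 FPKM. The lowest was Fos at 1.34 FPKM. Many of these genes also answer to other pathways, and with no sample without LIF their dependence on Stat3 was not tested.

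The branch from Shp2 to Ras and Erk had a list median above that of the 10 pathway genes. Of 14 genes found, 13 passed 1 FPKM, against 56.0% of all genes, and the median was 33.9 FPKM (44.6 on the model length). The docking protein Gab1, which carries Shp2 to receptors, had 31.2 FPKM, whereas its relative Gab2 had 0.322 FPKM (0.235 to 0.410, 54 counts).

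**Figure D5:**
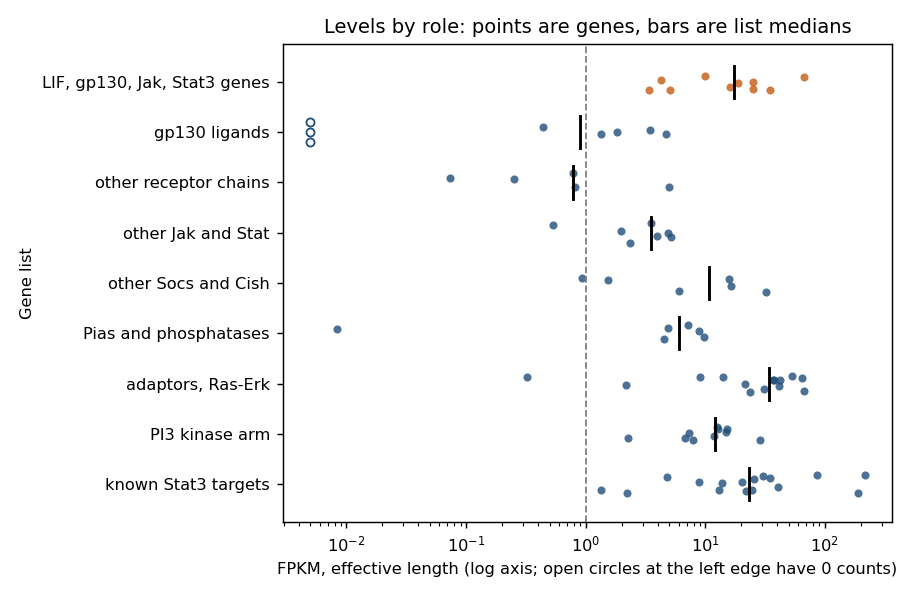
FPKM on the effective length (log axis) of each gene found, by role, with list medians as black bars, 1 FPKM as a dashed line and genes with 0 counts as open circles at the left edge. The 10 pathway genes (top row) have a median of 17.5 FPKM, against 0.896 for the ligands, 0.784 for the other receptor chains and 33.9 for the Ras-Erk arm.

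Promoters were searched for Stat motifs in RefSeq's 300-base windows on GRCm38.p6, from 250 bases before the start to 50 after, which covered all 10 genes with 12 windows. The motif TTCCNNGAA, searched on both strands, was in none of them, against 5.60% of all genes with a window. The looser palindrome TTCNNNGAA, which includes the first, was in 1 of them, against 9.55% of all genes. That gene was Socs3, with the motif 154 to 146 bases before RefSeq's start, shown in capitals in this stretch on the minus strand at chr11:117969502-117969530.
Socs3 promoter: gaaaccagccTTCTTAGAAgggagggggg

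By GENCODE M21 the stretch lies 316 bases before the start of the coding transcript of Socs3 and within an intron of a longer noncoding transcript of the gene, so its distance from a start depends on the annotation. The window that holds the stretch ends short of that coding start. An absent match says only that these letters are not in these windows. The data here hold no measurement at promoters.

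The label of the cells was checked against marker genes. For comparison, 56.0% of all genes had at least 1 FPKM. All 8 pluripotency markers were present at 29.0 to 605 FPKM, led by Pou5f1 at 605 and Tdgf1 at 466 FPKM. Of 9 fibroblast markers found, 1 had at least 1 FPKM, Thy1 at 3.74, with a summed level of 6.87 FPKM; Col1a1 had 0.902 FPKM and Postn had 0 counts, which allow up to 0.0324 FPKM. Of 7 primitive endoderm markers found, 3 did, with Sparc at 73.2 and Col4a1 at 5.24 FPKM in a sum of 82.8 FPKM. Of 7 blood cell markers found, 2 did, the globin gene Hbb-b1 at 73.0 FPKM (957 counts) and Kit at 5.87 FPKM, in a sum of 79.9 FPKM. The part of other cells in the levels above was not tested.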

How the data were processed

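Build mm9, Bowtie 1.1.2, CASAVA 1.8.2 and eXpress 1.1.1 are named by the submitters' processing notes, with their roles not given in the sources used here. A single table was deposited by the authors with, per the file headers, total and unique counts, estimated counts, lengths and FPKM with bounds. Total and unique counts were equal in every row. One row without a gene name, which holds the total, was left out. FPKM equalled the count over effective length and total, within a relative 0.00017.

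No column names a library, so no group was inferred and the planned edgeR comparison was not run. The depth was 22625281 counts. Levels on the model length, exact 95% Poisson intervals, ratios with exact conditional binomial intervals and the limit of 3 counts for a count of 0 were computed from the counts. All cover counting error only. Ratios and the motif search were tested on simulated data.

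Sequences are from GENCODE M21 (GRCm38) and RefSeq (GRCm38.p6), another build than the table's. Table symbols were matched directly or by 1 RefSeq synonym (18073 of 18312). The longest 3′ untranslated region per gene was used, with a minimum of 50 nt, and is not matched to the table's model.

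The 10 genes, the lists and the tests were chosen with earlier results of these data known. Named beside the 10 genes were the 2 highest of each list, genes with 0 counts and genes whose level differs over 3-fold between lengths; other list genes were named for their role, with their values known. The values of some list genes are not reported here. Alternatives were the model length, a minimum of 5 FPKM, a minimum of 10 counts, and other motifs and regions. The software was scipy 1.17.1, matplotlib 3.10.9, pandas 2.3.3 and numpy 2.4.6 under Python 3.11.15.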

Additional observations from a re-analysis of the deposited data

How the results depend on the processing

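No paired analysis was possible because no column names a library, group or replicate. For the same reason the fits that leave out a replicate were not run. With the model length all 10 levels lay above their deposited bounds, and the median of the 10 genes was 23.6 in place of 17.5 FPKM. The number of neighbours in the order whose intervals did not overlap was 8 of 9 on the effective length and 7 on the model length. All 10 genes passed 1 FPKM on either length and with at least 10 counts, and 8 passed 5 FPKM, as did 38.3% of all genes.

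Of 13 other lists, 7 kept counts within 1.5 times throughout. At 5 FPKM the counts were 0 in place of 4 for ligands, 0 in place of 1 for other receptor chains, 1 in place of 6 for other Jak and Stat genes, 3 in place of 5 for Pias proteins and phosphatases, 2 in place of 5 for interferon-type targets and 0 in place of 1 for fibroblast markers. With the model length, 3 other receptor chains and 3 fibroblast markers passed 1 FPKM, in place of 1 each. The cause follows from the threshold or the length.

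TATTTAT was in 5 of the 10 genes with the longest region, in 3 with the shortest (19.9% of all genes) and in 5 with the transcript nearest in length to the table's model (26.2% of all genes), an alternative added after seeing the data. ATTTA was in 10 and TTATTTATT in 1. In promoters, TTCCNNGAA was in 0 and TTCNNNGAA in 1. Depth limits genes with few counts most: the counting bounds were 9.07% of the level either way for Lifr and 2.87% for Pim1.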

Other observations

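The PI3 kinase arm, another branch below gp130 and Ras, was present in full. All 10 listed genes passed 1 FPKM, against 56.0% of all genes, and their median was 12.1 FPKM (16.3 on the model length). The kinase gene Gsk3a had 15.2 FPKM on the effective length and 46.7 FPKM on the model length, which differ 3.07-fold.

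Genes known as targets of interferon were mixed. Of 7 found, 5 passed 1 FPKM, against 56.0% of all genes. The median was 2.50 FPKM, against 1.94 for all genes. The guanylate-binding protein gene Gbp2 had 16.0 FPKM (15.1 to 16.9) and the transcription factor Irf1 had 14.8 FPKM (14.0 to 15.7), while Irf7 had 0.0898 FPKM from 6 counts and Mx1, an antiviral GTPase gene, had 0.0998 FPKM from 8 counts.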
